A study of Mus musculus with 8 samples.

Results

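The enzymes that write, keep and remove 5-methylcytosine were followed in mouse embryonic stem cells (ESCs) as 9 genes: Dnmt1, Uhrf1, Dnmt3a, Dnmt3b, Dnmt3l, Tet1, Tet2, Tet3 and Tdg. They were taken by gene symbol, whatever their level, and all 9 of them were found among the 38991 genes in the table and reached an FPKM of 1 in 2 or more cultures, the filter on low values that left 12927 genes to test. FPKM is a count of sequenced fragments scaled to the transcript length and to the size of the library, so levels of different genes are per length.

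RNA was sequenced from 8 cultures of RGd2 ESCs, a single strain 129 line at passage 11 that carries a destabilised GFP reporter at Rex1 (Zfp42). All cultures had spent 6 passages in 2i and then 5 passages, split every 3 days, in 1 of 4 versions of serum-free N2B27 medium, with 2 cultures each. 2i is CH, a GSK3 inhibitor, at 3 µM together with PD, a MEK inhibitor, at 1 µM, and LIF is the cytokine that activates Stat3. The 4 conditions were 2i+LIF (CH, PD and LIF), 2i (CH and PD, no LIF), CH+LIF (no PD) and LIF+PD (no CH). Each of the last 3 therefore lacks 1 component of 2i+LIF, and the question was how the enzymes differ once that component is withdrawn. The 3 withdrawal comparisons share the 2 cultures in 2i+LIF, so an unusual value there enters all of them. Nothing states that the 2 cultures of a condition were started separately, and p-values measure only the spread between these cultures, which may be technical. In such bulk RNA, fewer cells that express a gene and less RNA per cell cannot be told apart.

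DNA methylation is copied at replication by Dnmt1, which Uhrf1 brings to newly replicated DNA. Dnmt3a and Dnmt3b set new methylation, and Dnmt3l, which has no catalytic activity of its own, stimulates both of them. Tet1, Tet2 and Tet3 oxidise 5-methylcytosine, and Tdg, a DNA glycosylase, cuts out the more oxidised forms so that base excision repair can put back an unmodified cytosine. ESCs kept in 2i are known for low methylation across the genome.

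All 8 pluripotency markers on the list, Pou5f1, Sox2, Nanog, Zfp42, Esrrb, Klf4, Tfcp2l1 and Dppa5a, stood at a mean FPKM of at least 1 in every condition, and their summed FPKM lay between 4157 and 6002. The summed FPKM of 6 fibroblast or feeder genes lay between 0.270 and 17.2, with Col3a1 and Dcn at 0 in all 8 cultures, and that of 6 primitive endoderm genes between 1.44 and 4.97. The highest fibroblast sum was in CH+LIF replicate 2, where Postn stood at 14.1, against 0.0338 or below in every other culture. Of 6 epiblast genes, 4 or 5 per condition reached an FPKM of 1, with sums of 29.1 and 35.8 in 2i+LIF and between 62.9 and 89.1 elsewhere. Different genes made up these sums. Otx2 stood at 50.3 and 49.2 in LIF+PD but 2.15 and 2.11 in CH+LIF. T stood at 36.4 and 18.5 in CH+LIF but 0.16 and 0.21 in LIF+PD. Lef1 stood at 37.1 and 36.4 in 2i but 4.52 and 4.97 in LIF+PD. The 4 neural genes in the table summed to 24.0 and 25.0 in LIF+PD, 8.48 and 10.5 in 2i and between 1.26 and 3.92 in the other cultures, and 5 trophoblast genes to 3.02 and 3.09 in LIF+PD and between 9.61 and 17.9 elsewhere. The part of these markers in the results was not tested. The read totals are not known. Relative depth, read from the smallest steps between low FPKM values, lay between 0.903 and 1.18 times that of 2i+LIF replicate 1 in 6 of the other cultures and was 0.499 in 2i replicate 1.

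Sequences upstream of transcription starts are shown for Dnmt3a and Dnmt3l, the members whose levels ranged furthest, for Dnmt3b, the other catalytic de novo enzyme, and for Tet2, which had the most CG, because the CpG content of a promoter is what methylation itself can act on. Each is the 250 bases before a RefSeq start (GRCm38.p6), 5′ to 3′ on the strand of the gene, with every CG in capitals. The genes lie, as deposited for mm10, at chr9:20907206-20959888 (Dnmt1), chr17:56303321-56323486 (Uhrf1), chr12:3806007-3914443 (Dnmt3a), chr2:153649450-153687730 (Dnmt3b), chr10:78041947-78063622 (Dnmt3l), chr10:62804570-62899118 (Tet1), chr3:133463679-133544390 (Tet2), chr6:83362373-83441678 (Tet3) and chr10:82629828-82650799 (Tdg). The first Dnmt3a start shown is the outer one on the plus strand (chr12:3806730-3806979), the next is the internal Dnmt3a start (chr12:3891494-3891743, plus strand), and Dnmt3l is the middle of its 3 starts (chr10:78049592-78049841, plus strand). Dnmt3b (chr2:153649199-153649448, plus strand) and Tet2 (chr3:133544391-133544640, minus strand) have 1 start each in that table.
Dnmt3a outer: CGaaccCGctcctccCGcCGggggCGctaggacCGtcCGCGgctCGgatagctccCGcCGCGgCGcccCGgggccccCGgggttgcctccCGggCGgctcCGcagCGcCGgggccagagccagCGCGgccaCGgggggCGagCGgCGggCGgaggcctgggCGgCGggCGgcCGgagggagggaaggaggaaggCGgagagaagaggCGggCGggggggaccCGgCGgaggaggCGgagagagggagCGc
Dnmt3a internal: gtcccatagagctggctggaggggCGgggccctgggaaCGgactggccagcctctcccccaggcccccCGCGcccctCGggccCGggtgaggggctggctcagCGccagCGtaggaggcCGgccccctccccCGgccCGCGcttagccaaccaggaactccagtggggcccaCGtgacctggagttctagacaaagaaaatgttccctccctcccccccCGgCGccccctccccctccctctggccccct
Dnmt3l middle: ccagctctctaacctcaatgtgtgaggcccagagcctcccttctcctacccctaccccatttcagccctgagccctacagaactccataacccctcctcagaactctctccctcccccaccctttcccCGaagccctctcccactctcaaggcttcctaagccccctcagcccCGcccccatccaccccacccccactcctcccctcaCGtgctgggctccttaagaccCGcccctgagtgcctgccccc
Dnmt3b: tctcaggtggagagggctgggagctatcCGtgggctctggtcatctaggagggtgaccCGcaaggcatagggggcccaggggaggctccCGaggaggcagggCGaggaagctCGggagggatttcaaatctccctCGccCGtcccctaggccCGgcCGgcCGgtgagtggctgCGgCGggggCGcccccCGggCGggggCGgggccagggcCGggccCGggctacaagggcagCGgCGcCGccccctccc
Tet2: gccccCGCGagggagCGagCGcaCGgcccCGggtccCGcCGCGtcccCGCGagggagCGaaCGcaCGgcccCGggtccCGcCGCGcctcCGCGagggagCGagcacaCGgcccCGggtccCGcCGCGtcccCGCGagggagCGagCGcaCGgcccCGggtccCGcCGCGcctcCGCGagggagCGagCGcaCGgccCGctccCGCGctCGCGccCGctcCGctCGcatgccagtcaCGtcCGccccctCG

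In windows of 300 bases that also take in 50 bases after the start, the 16 starts of the 9 genes ranged from 2 CG in the outermost Dnmt1 start to 57 in Tet2, against a median of 7 and an upper quartile of 20 over 32851 RefSeq promoters. The Dnmt3a outer starts held 46 and 47 CG and its internal start 18, while the 3 Dnmt3l starts held 6, 4 and 3. Dnmt3b held 30, Tdg 26, Tet3 22, Tet1 17, and the 2 Uhrf1 starts 12 and 33. The letters of 3 motifs were searched for on both strands. TTCNNNGAA, the core letters bound by Stat3, was in the middle Dnmt3l start and in Tdg and in 8.30% of all promoters. CTTTGNT, the core of the Tcf/Lef motif, was in Tet1 and in 18.6% of all promoters. CCGGAA, the core of the Ets motif, was in 1 Uhrf1 start and in 14.9% of all promoters. These are matches of letters only, and a gene-level FPKM does not show which start was used.

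Dnmt3a, the de novo enzyme lowest in 2i+LIF, rose on each withdrawal, and its 4 conditions stood apart from each other. Its FPKM was 6.50 and 6.33 in 2i+LIF, 21.0 and 17.0 in CH+LIF, 43.4 and 31.9 in LIF+PD, and 63.5 and 51.2 in 2i. No 2 conditions overlapped, and the highest culture was 10.03-fold above the lowest. Mean FPKM (± SD, n = 2) was 6.42 ± 0.119 in 2i+LIF, so the rise was 8.94-fold without LIF, 5.87-fold without CH and 2.97-fold without PD. On the log2(FPKM + 1) scale used for all tests, which understates the change of low genes, the differences were 2.97 without LIF (SE 0.18, adjusted p = 0.00014), 2.37 without CH (SE 0.18, adjusted p = 0.000287) and 1.43 without PD (SE 0.18, adjusted p = 0.0024). Adjusted p-values here are from limma, with Benjamini-Hochberg adjustment over the 12927 genes, and a gene was called at an adjusted p below 0.05.

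Among the 3 withdrawals themselves, Dnmt3a was lower in CH+LIF than in 2i by 1.54 on the log2 scale (written as the difference −1.54, adjusted p = 0.00162), and lower in CH+LIF than in LIF+PD (−0.94, adjusted p = 0.00776). The step from LIF+PD to 2i was nearer the threshold (−0.60 for LIF+PD minus 2i, adjusted p = 0.0469). It passed in 8 of 18 other settings and went from −0.82 to −0.39 over them. With 1 culture left out, its adjusted p was 0.0726 and 0.0729 without either 2i+LIF culture, 0.201 and 0.0513 without 2i replicate 1 or 2, 0.0529 and 0.0526 without CH+LIF replicate 1 or 2, and 0.216 without LIF+PD replicate 2. The difference itself was −0.45 without 2i replicate 1 and −0.75 without 2i replicate 2. The deposited bounds of Dnmt3a had a half-width of 14.8% to 40.0% of the FPKM, and those of Tet3 15.5% to 30.0%, while the other 7 genes stayed at or below 15.5%.

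Dnmt3l, the cofactor of both de novo enzymes, was the other gene that rose on every withdrawal. Its FPKM was 47.1 and 25.4 in 2i+LIF, 149.6 and 140.2 in 2i, 156.8 and 155.6 in CH+LIF, and 165.2 and 190.5 in LIF+PD. Every culture that lacked a component was above both 2i+LIF cultures, although those 2 had a larger ratio between them than the 2 cultures of any other condition. The rise was 4.00-fold without LIF (log2 difference 2.03, SE 0.25, adjusted p = 0.00217), 4.91-fold without CH (2.32, SE 0.25, adjusted p = 0.000929) and 4.31-fold without PD (2.14, SE 0.25, adjusted p = 0.00181).

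Unlike Dnmt3a, Dnmt3l showed no called difference between the 3 conditions that lack a component. The differences were 0.11 for CH+LIF minus 2i (95% interval −0.47 to 0.69), −0.18 for CH+LIF minus LIF+PD (−0.76 to 0.40) and 0.29 for LIF+PD minus 2i (−0.29 to 0.87), and differences within these intervals are not shown to be absent. Over the 18 other settings, both Dnmt3a and Dnmt3l stayed past the threshold in each of the 3 withdrawals, with adjusted p-values of at most 0.0251 for Dnmt3l and at most 0.0199 for Dnmt3a.

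Dnmt3b, which with Dnmt3a carries out de novo methylation, moved less. Its FPKM was 35.0 and 33.4 in 2i+LIF, 41.9 and 50.9 in LIF+PD, 42.5 and 66.6 in 2i, and 68.8 and 65.1 in CH+LIF. Both 2i+LIF cultures were below the other 6, but the 2 cultures in 2i lay far apart and overlapped LIF+PD. Dnmt3b rose without PD, 1.96-fold (log2 difference 0.95, SE 0.20, adjusted p = 0.0147). Without LIF the difference was 0.62 (95% interval 0.16 to 1.09, adjusted p = 0.0707) and without CH 0.42 (−0.045 to 0.89, adjusted p = 0.164).

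The call for Dnmt3b without PD was lost when a culture of either condition was left out, which leaves 1 in that condition. The difference itself was 0.98 and 0.91 without 2i+LIF replicate 1 or 2, and 0.91 and 0.99 without CH+LIF replicate 1 or 2. With all cultures it was 0.95, and the SE went from 0.20 to 0.26. For LIF withdrawal the difference became 0.94 (adjusted p = 0.0099) without 2i replicate 1, the culture of lowest depth, and 0.30 without 2i replicate 2. For CH withdrawal the adjusted p was 0.0367 and 0.0369 without 2i replicate 1 or 2. In CH+LIF against 2i the difference was 0.64 (adjusted p = 0.0269) without 2i replicate 2 and 0.0074 without 2i replicate 1, in CH+LIF against LIF+PD the adjusted p was 0.0155 and 0.0156 without 2i replicate 1 or 2, and in LIF+PD against 2i the difference was −0.52 (adjusted p = 0.0493) without 2i replicate 1 and 0.12 without 2i replicate 2. With all cultures these 3 comparisons gave adjusted p-values of 0.273, 0.0852 and 0.505.

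**Figure D1:**
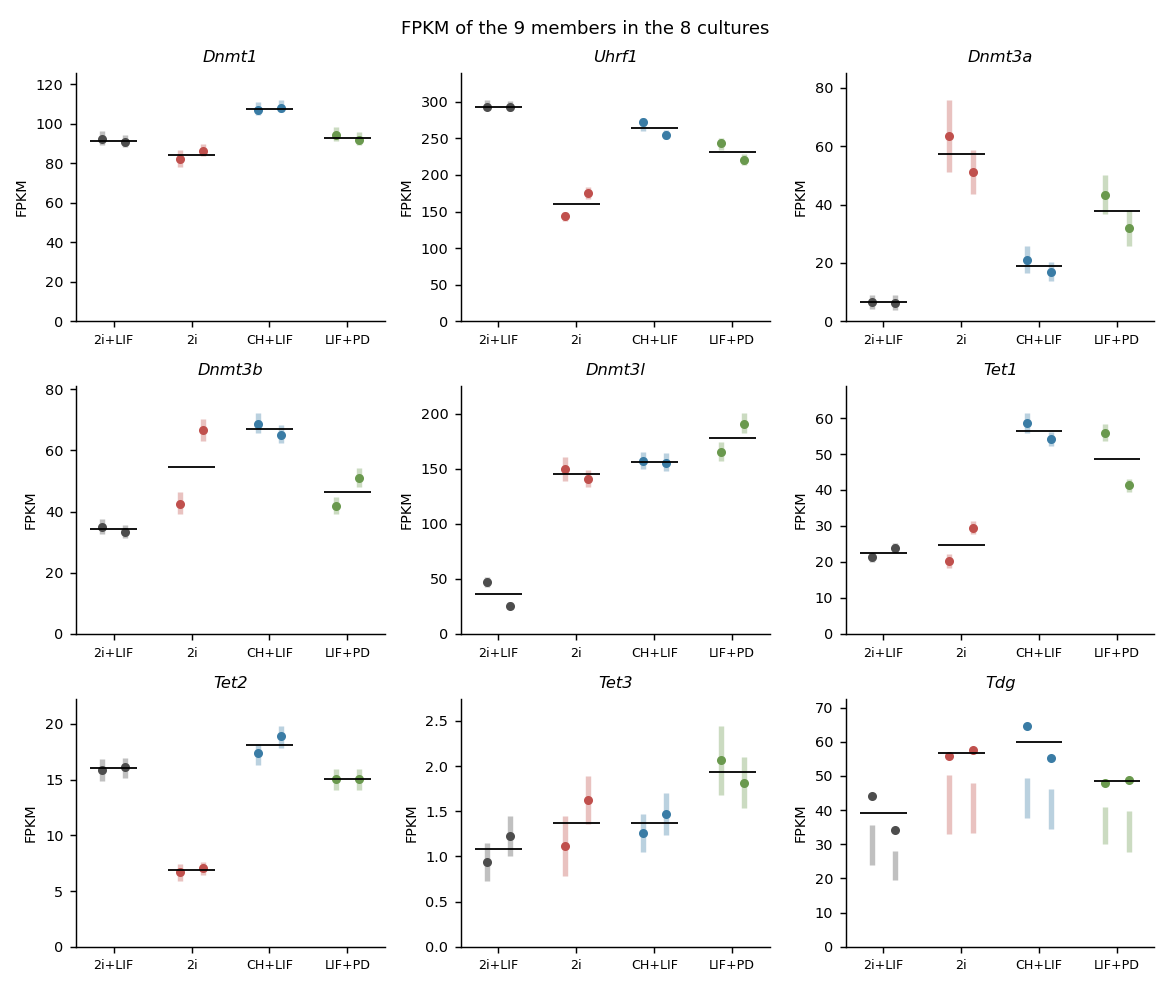
FPKM of each of the 9 genes (y axis, linear, from 0) in the 4 conditions (x axis). Points are the 2 cultures, pale bars the deposited lower and upper bounds of each culture and black lines the condition means. Dnmt3a climbs in steps from 6.42 in 2i+LIF to 57.4 in 2i, Dnmt3l has a single step up from 2i+LIF, Tet2 and Uhrf1 are lowest in 2i, and the Tdg points lie above their own bounds in all 8 cultures.

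With Dnmt3a rising more than Dnmt3b, the make-up of the catalytic de novo pair differed by condition. The ratio of Dnmt3a to Dnmt3b FPKM was 0.186 and 0.189 in 2i+LIF, 0.306 and 0.261 in CH+LIF, 1.04 and 0.627 in LIF+PD, and 1.49 and 0.769 in 2i. The conditions 2i+LIF and CH+LIF were thus each below all 4 cultures without CH or without LIF, while 2i and LIF+PD overlapped. The sum of both genes was 41.5 and 39.8 FPKM in 2i+LIF, and between 82.1 and 118 FPKM in the other cultures. Relative to Dnmt1, the sum was 0.450 and 0.439 in 2i+LIF, between 0.760 and 0.905 in CH+LIF and LIF+PD, and 1.29 and 1.37 in 2i.

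Uhrf1, the factor that guides Dnmt1 to newly copied DNA, fell without LIF. Its FPKM was 293.1 and 292.7 in 2i+LIF, 272.6 and 255.2 in CH+LIF, 243.9 and 220.1 in LIF+PD, and 143.5 and 175.9 in 2i. The 4 conditions did not overlap, with 2i lowest and the 2i+LIF pair almost equal. The fall without LIF was 1.83-fold (log2 difference −0.88, SE 0.11, adjusted p = 0.00262), and it stayed past the threshold in all 18 other settings, between −1.02 and −0.73.

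Without CH, Uhrf1 differed by −0.34 (95% interval −0.60 to −0.073, adjusted p = 0.0664), and without PD by −0.15 (−0.41 to 0.11, adjusted p = 0.364). The first of these had an adjusted p of 0.033 without 2i replicate 1 and 0.0329 without 2i replicate 2, neither of which is in the comparison, as they enter it through the shared estimate of the spread. With all cultures, the CH difference also passed with median-of-ratios scaling (−0.39, adjusted p = 0.0411), and in all it passed in 3 of 18 other settings. Uhrf1 was higher in CH+LIF than in 2i (0.73, adjusted p = 0.00488) and higher in LIF+PD than in 2i (0.54, adjusted p = 0.0127). The last had an adjusted p of 0.0509 without 2i replicate 1 and 0.0781 without LIF+PD replicate 1.

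Dnmt1, the maintenance enzyme, was the steadiest of the 9, with a highest culture 1.31-fold above the lowest. Its FPKM was 92.3 and 90.6 in 2i+LIF, 82.2 and 86.2 in 2i, 94.2 and 91.8 in LIF+PD, and 107.0 and 107.9 in CH+LIF. The CH+LIF cultures were above, and the 2i cultures below, all others. Without PD the rise of 0.23 on the log2 scale (SE 0.069, adjusted p = 0.0487) passed in 3 of 18 other settings. Leaving out any 1 culture gave adjusted p-values between 0.0574 and 0.176: 0.141 and 0.176 without the 2i+LIF cultures, 0.15 and 0.146 without the CH+LIF cultures, 0.0574 and 0.058 without the 2i cultures, and 0.0785 and 0.0788 without the LIF+PD cultures.

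The difference in Dnmt1 between CH+LIF and 2i was 0.35 (SE 0.069, adjusted p = 0.0127), with adjusted p-values of 0.0622 without 2i replicate 1, 0.0586 without CH+LIF replicate 1 and 0.0587 without CH+LIF replicate 2. Without LIF Dnmt1 differed by −0.12 (95% interval −0.28 to 0.045, adjusted p = 0.281) and without CH by 0.025 (−0.14 to 0.19, adjusted p = 0.827). Uhrf1 FPKM over Dnmt1 FPKM was 3.18 and 3.23 in 2i+LIF, between 2.37 and 2.59 in CH+LIF and LIF+PD, and 1.75 and 2.04 in 2i.

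Tet1, the most abundant of the oxidising enzymes per length in all 8 cultures, rose without PD and without CH. Its FPKM was 21.2 and 23.8 in 2i+LIF, 20.2 and 29.5 in 2i, 56.0 and 41.3 in LIF+PD, and 58.6 and 54.1 in CH+LIF. The 4 cultures with LIF and a single inhibitor were above the 4 with both inhibitors, and within each of these sets the conditions overlapped. The rise was 2.50-fold without PD (log2 difference 1.29, SE 0.20, adjusted p = 0.00526) and 2.16-fold without CH (1.06, SE 0.20, adjusted p = 0.00975). The second had an adjusted p of 0.0592 without 2i+LIF replicate 1 and 0.0556 without LIF+PD replicate 1.

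Without LIF, Tet1 differed by 0.11 (95% interval −0.36 to 0.59, adjusted p = 0.738), and the sign turned to −0.15 without 2i replicate 2. Tet1 was higher than in 2i both in CH+LIF (1.17, adjusted p = 0.00736) and in LIF+PD (0.95, adjusted p = 0.0139). For LIF+PD against 2i the adjusted p was 0.0568 and the difference 0.69 without 2i replicate 1, and 0.0759 and 0.74 without LIF+PD replicate 1.

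Tet2, a second oxidising enzyme, was lowest in the 2 cultures without LIF. Its FPKM was 15.9 and 16.1 in 2i+LIF, 15.0 and 15.1 in LIF+PD, 17.4 and 18.9 in CH+LIF, and 6.70 and 7.05 in 2i. The 6 cultures with LIF lay within 15.0 to 18.9 FPKM, and both cultures without it were at 7.05 FPKM or below. The fall without LIF was 2.33-fold (log2 difference −1.11, SE 0.093, adjusted p = 0.000511). It passed the threshold in all 18 other settings, as did the higher levels in CH+LIF (1.28, adjusted p = 0.000259) and in LIF+PD (1.03, adjusted p = 0.000462) than in 2i.

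Without CH, Tet2 differed by −0.083 (95% interval −0.30 to 0.14, adjusted p = 0.555) and without PD by 0.17 (−0.052 to 0.39, adjusted p = 0.231). Tet3, the third of the family, was near the filter in every culture. Its FPKM was 0.938 and 1.23 in 2i+LIF, 1.11 and 1.62 in 2i, 1.26 and 1.47 in CH+LIF, and 2.06 and 1.81 in LIF+PD. No Tet3 difference was called in the 6 comparisons, and the one furthest from 0, without CH, was 0.50 (95% interval 0.080 to 0.92, adjusted p = 0.0809).

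The TET make-up followed from these levels. Tet1 held 55.8% and 57.9% of the summed Tet1, Tet2 and Tet3 FPKM in 2i+LIF, and between 71.0% and 77.3% in the other 6 cultures. The sum itself was 38.1 and 41.2 FPKM in 2i+LIF and 28.0 and 38.2 FPKM in 2i, against 77.2 and 74.5 FPKM in CH+LIF and 73.1 and 58.2 FPKM in LIF+PD. The Tet1 share was thus high in 2i, where Tet2 was low, and also in CH+LIF and LIF+PD, where Tet1 was high.

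**Figure D2:**
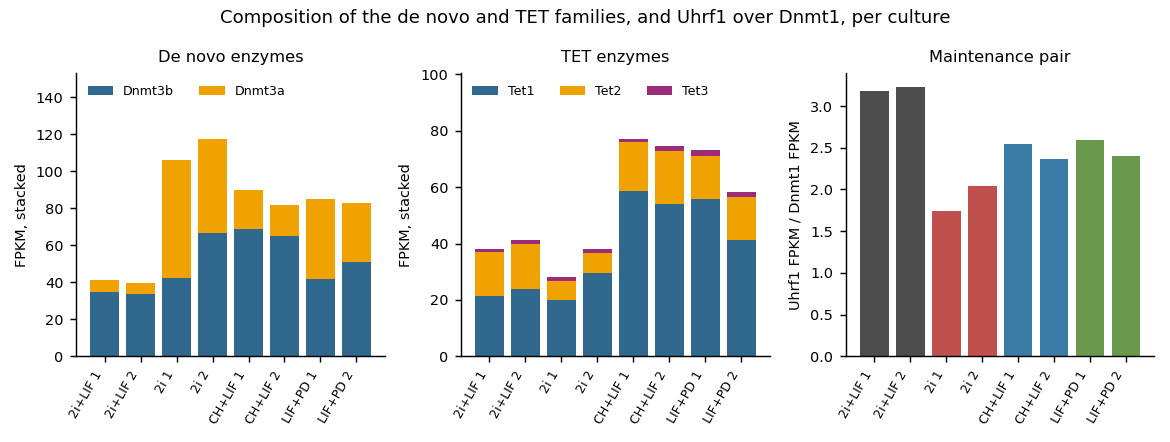
Left, Dnmt3a and Dnmt3b FPKM stacked for each of the 8 cultures, and middle, Tet1, Tet2 and Tet3 FPKM stacked in the same way. Right, Uhrf1 FPKM divided by Dnmt1 FPKM per culture, which is 3.18 and 3.23 in 2i+LIF and 1.75 and 2.04 in 2i. All axes are linear and start at 0.

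Tdg, the glycosylase, rose without PD and without LIF by small amounts. Its FPKM was 44.2 and 34.3 in 2i+LIF, 47.9 and 48.9 in LIF+PD, 55.8 and 57.7 in 2i, and 64.8 and 55.3 in CH+LIF. Both 2i+LIF cultures were below the other 6. The difference was 0.61 without PD (SE 0.13, adjusted p = 0.0167), 0.53 without LIF (SE 0.13, adjusted p = 0.0324) and 0.31 without CH (95% interval −0.0031 to 0.62, adjusted p = 0.132). The last passed in 1 of 18 other settings, TPM scaling (0.44, adjusted p = 0.0367), where the median of all genes was 0.16.

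Either Tdg call could be lost with a single culture. Without PD, the adjusted p was 0.0723 without 2i+LIF replicate 2 and 0.0959 without CH+LIF replicate 1. Without LIF, it was 0.137 (difference 0.35) without 2i+LIF replicate 2, 0.0894 and 0.11 without 2i replicate 1 or 2, and 0.053 and 0.0534 without LIF+PD replicate 1 or 2. The deposited Tdg FPKM was above its own upper bound in all 8 cultures, which was so for 4.82% to 8.24% of the genes above 0 in a culture. With the midpoint of the bounds in place of the FPKM, a setting chosen after seeing the data, the differences were 0.63 without PD (adjusted p = 0.0073), 0.61 without LIF (adjusted p = 0.0103) and 0.36 without CH (adjusted p = 0.0535).

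Set side by side, LIF withdrawal gave 3 members called higher (Dnmt3a, Dnmt3l and Tdg) and 2 lower (Uhrf1 and Tet2), where 9.77% of all genes tested were called higher and 8.86% lower. CH withdrawal gave 3 higher (Dnmt3a, Dnmt3l and Tet1) and 0 lower, against 14.8% and 10.4%. PD withdrawal gave 6 higher (Dnmt1, Dnmt3a, Dnmt3b, Dnmt3l, Tet1 and Tdg) and 0 lower, against 12.2% and 13.3%. By limma's p before adjustment, at the same threshold of 0.05, 1 member was lower without CH (Uhrf1) and 0 without PD. The PD count was 3 without 2i+LIF replicate 2 and also 3 without CH+LIF replicate 1, and the CH count was 5 without either 2i culture. The CH count was 2 without 2i+LIF replicate 1 and 2 without LIF+PD replicate 1, where Tet1 was lost.

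Of the other comparisons, CH+LIF against 2i gave 4 members higher (Tet2, Tet1, Uhrf1 and Dnmt1) and 1 lower (Dnmt3a), where 10.6% and 13.3% of all genes were called. LIF+PD against 2i gave 3 higher (Tet2, Tet1 and Uhrf1) and 1 lower (Dnmt3a), against 14.0% and 11.1%. CH+LIF against LIF+PD gave 0 higher and 1 lower, Dnmt3a, against 12.6% and 17.8%, and before adjustment 3 members (Dnmt1, Dnmt3b and Tet2) were higher in limma. The count for LIF+PD against 2i was 2 without 2i replicate 1 and 2 without LIF+PD replicate 1, and that for CH+LIF against LIF+PD was 2 without either 2i culture, where Dnmt3b was added. In the main fit of all cultures, Dnmt3a was the single member called in all 6 comparisons, and Tet3 the single member called in none. With no mean-variance trend in limma, Tet3 was called without CH (adjusted p = 0.0469). In that fit Dnmt3a was not called in LIF+PD against 2i (adjusted p = 0.0625).

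**Figure D3:**
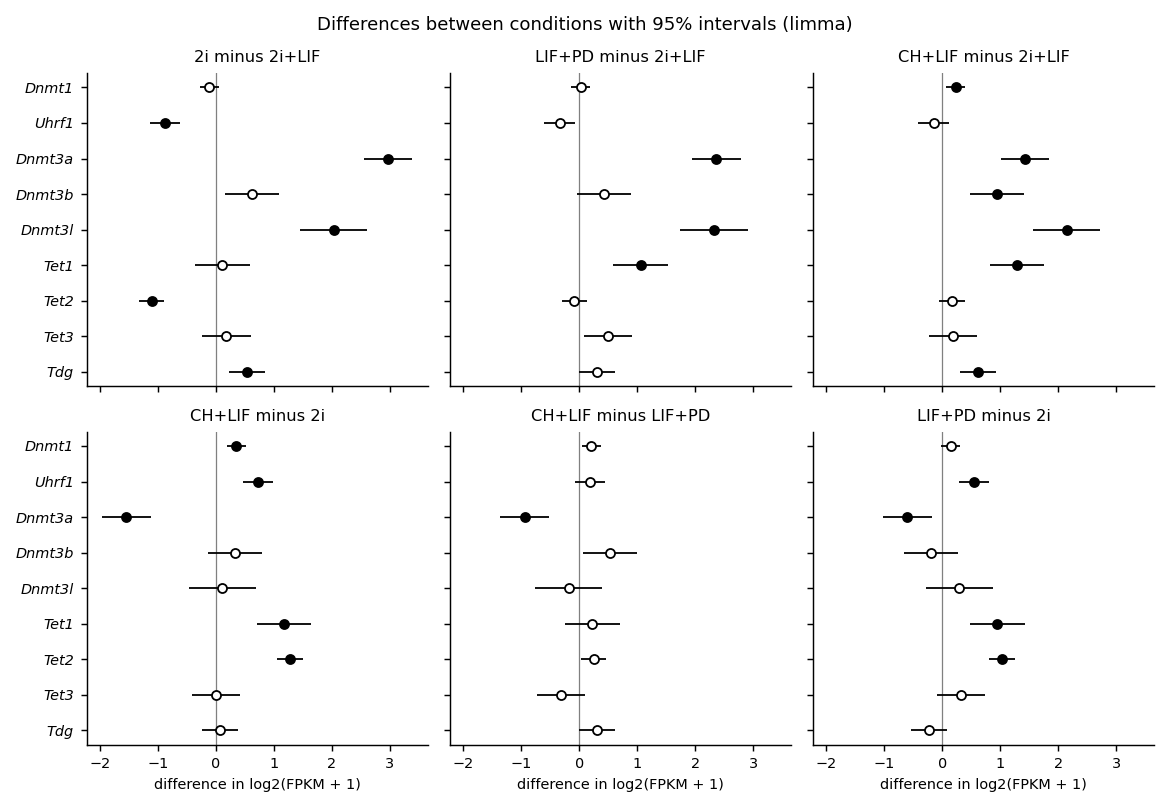
Difference in log2(FPKM + 1) (x axis) for the 9 genes (y axis) in each of the 6 comparisons, with 95% intervals from limma. Filled points have an adjusted p below 0.05 and open points do not. Dnmt3a is filled in all 6 panels, Dnmt3l in the upper 3, which share the 2i+LIF cultures, and Uhrf1 and Tet2 are left of 0 in 2i minus 2i+LIF.

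The authors' read counts, not used here, were made with strand taken into account, while for the FPKM values nothing states whether strand was used. In GENCODE M21 4 of the members overlap a gene on the opposite strand: Dnmt3b with Dnmt3bos, Dnmt3a with Dnmt3aos, Dnmt3l with Aire, and Tdg with Glt8d2. If strand was not used, reads from the shared stretch cannot be told apart. Over the 8 cultures Aire stood at an FPKM of 2.80 to 15.4 against 25.4 to 190.5 for Dnmt3l, and Glt8d2 at 0.0393 to 0.965 against 34.3 to 64.8 for Tdg. Processed pseudogenes named for Dnmt3a, Dnmt3l and Tdg are also annotated, of which Dnmt3l-ps1 was at 0 in all 8 cultures. Dnmt3a-ps1, Tdg-ps, Dnmt3aos and Dnmt3bos had no entry among the 38991 genes. Whether their reads were counted toward Dnmt3a, Dnmt3b or Tdg cannot be seen.

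Regulators of the enzymes differed between the conditions too. Prdm14, a repressor of the de novo enzyme genes in naive cells, was at an FPKM of 27.2 and 22.2 in 2i+LIF, 23.5 and 18.3 in LIF+PD, 14.8 and 9.94 in 2i, and 11.4 and 9.62 in CH+LIF. It fell 2.35-fold without PD (log2 difference −1.16, adjusted p = 0.00868) and 2.00-fold without LIF (−0.96, adjusted p = 0.0206), and differed by −0.23 without CH (95% interval −0.73 to 0.26, adjusted p = 0.452). The Prdm14 call for LIF had an adjusted p of 0.111 and 0.0537 without 2i+LIF replicate 1 or 2 and 0.0754 without 2i replicate 2, and that for PD 0.056 without 2i+LIF replicate 1. In LIF+PD, Prdm14 FPKM overlapped that of 2i+LIF, though its interval includes a fall, and mean Dnmt3a FPKM was 5.87-fold that of 2i+LIF. Whether Prdm14 and Dnmt3a are linked in these cultures was not tested.

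Dppa3, which binds Uhrf1 and keeps it from chromatin, was highest in 2i+LIF. Its FPKM was 66.0 and 47.9 there, 25.7 and 29.9 in LIF+PD, 24.1 and 15.3 in 2i, and 2.37 and 2.30 in CH+LIF. The 2i+LIF cultures were above, and the CH+LIF cultures far below, all others. The fall was 24.4-fold without PD (−4.10, SE 0.23, adjusted p = 0.000233), 2.89-fold without LIF (−1.50, adjusted p = 0.00518) and 2.05-fold without CH (−0.997, adjusted p = 0.0193). The last had an adjusted p of 0.107 without 2i+LIF replicate 1, and 0.0995 and 0.0571 without LIF+PD replicate 1 or 2.

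Zfp57, which holds methylation at imprinted regions, was at an FPKM of 223.1 and 207.6 in 2i+LIF, 251.0 and 212.3 in 2i, 286.6 and 261.3 in LIF+PD, and 349.9 and 309.5 in CH+LIF. It rose without PD (0.61, adjusted p = 0.00922), with an adjusted p of 0.0566 without 2i+LIF replicate 2 and 0.0588 without CH+LIF replicate 1. Kdm2b, a CpG-island binding demethylase of histone H3, rose 2.22-fold without LIF, from 39.2 and 37.4 to 88.2 and 82.0 FPKM (1.13, adjusted p = 0.00283). It also rose 1.95-fold without CH (0.93, adjusted p = 0.00464). The rise of Kdm2b without PD (0.53, adjusted p = 0.0362) passed in 12 of 18 other settings. Of the 13 regulators tested, 3 were called higher and 2 lower without LIF, 2 and 2 without CH, and 3 and 3 without PD, with median log2 differences of −0.056, 0.21 and −0.0029 against 0.035, 0.034 and 0.0070 over all genes. Over all genes tested, 9.77% were called higher and 8.86% lower without LIF, 14.8% and 10.4% without CH, and 12.2% and 13.3% without PD.

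Among the partners of maintenance methylation, genes were called in both directions. Uhrf2, the relative of Uhrf1, was at an FPKM of 22.4 and 24.3 in 2i+LIF, 57.8 and 45.6 in 2i, 13.7 and 15.9 in LIF+PD, and 12.7 and 10.97 in CH+LIF. It rose 2.21-fold without LIF (1.10, adjusted p = 0.00271), where Uhrf1 fell, and fell without CH (−0.63, adjusted p = 0.019) and without PD (−0.93, adjusted p = 0.00481). The Uhrf2 call for CH had an adjusted p of 0.0643 and 0.0954 without 2i+LIF replicate 1 or 2 and 0.103 without LIF+PD replicate 1. Hells, a remodeller that supports methylation, rose 1.98-fold without CH, from 119.5 and 129.7 to 252.7 and 239.9 FPKM (0.98, adjusted p = 0.00189), and also rose without PD (0.90, adjusted p = 0.00331).

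Hdac2, a histone deacetylase found with Dnmt1, fell 1.89-fold without LIF (−0.92, adjusted p = 0.00401). Cdca7l, a relative of the Hells partner Cdca7, rose 2.54-fold without PD (1.21, adjusted p = 0.00459). The rise of Cdca7l without LIF (0.76, adjusted p = 0.029) passed in 14 of 18 other settings. In all, 2 of the 13 partners were called higher and 1 lower without LIF, 1 and 1 without CH, and 4 and 1 without PD. For all genes these shares were 9.77% and 8.86% without LIF, 14.8% and 10.4% without CH, and 12.2% and 13.3% without PD. The median differences were 0.12, −0.054 and 0.14.

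**Figure D4:**
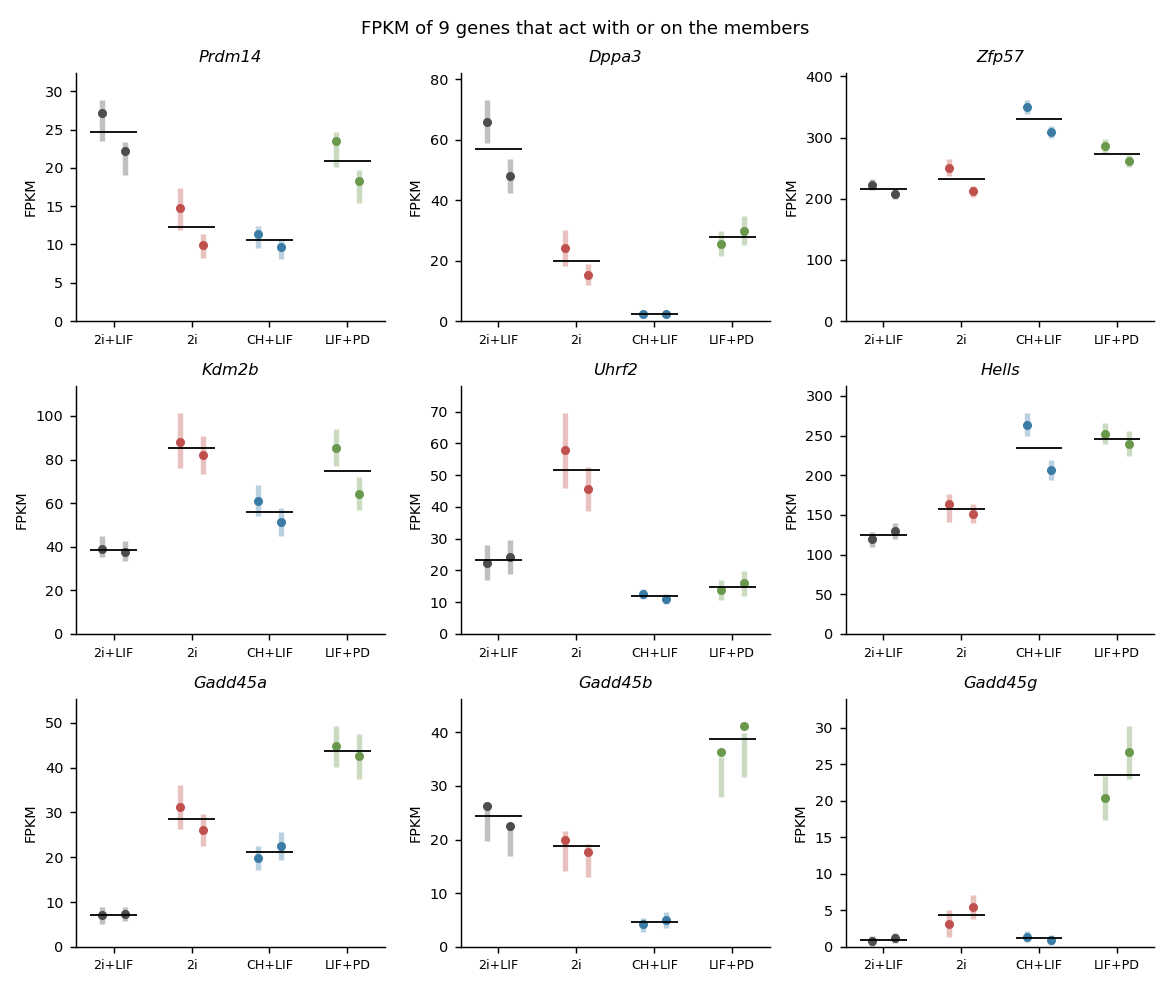
FPKM (y axis, linear, from 0) of 9 genes that act with or on the members, in the 4 conditions. Points are cultures, pale bars the deposited bounds and black lines the means. Dppa3 drops from a mean of 57.0 in 2i+LIF to 2.34 in CH+LIF, Uhrf2 is highest in 2i, Gadd45a is lowest in 2i+LIF, and Gadd45g is high in LIF+PD.

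Among genes known to work with the TET enzymes, the Gadd45 family, adaptor proteins linked to repair-based demethylation, moved most. Gadd45a was at an FPKM of 7.09 and 7.28 in 2i+LIF, 31.2 and 26.1 in 2i, 19.8 and 22.6 in CH+LIF, and 44.8 and 42.6 in LIF+PD. It rose 3.99-fold without LIF (1.85, adjusted p = 0.000159), 6.08-fold without CH (2.45, adjusted p = 5.98e-05) and 2.95-fold without PD (1.44, adjusted p = 0.000585), so the order of its conditions was not that of Dnmt3a.

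Gadd45g rose from 0.725 and 1.18 to 20.4 and 26.7 FPKM without CH (3.65, adjusted p = 0.000231), and Gadd45b fell from 26.2 and 22.5 to 4.27 and 5.03 FPKM without PD (−2.17, adjusted p = 0.000269). Gadd45g also rose without LIF (1.41, adjusted p = 0.0108, and 0.0665 without 2i+LIF replicate 1), and differed by 0.16 without PD (adjusted p = 0.685). Gadd45b rose without CH (0.65, adjusted p = 0.0116), with an adjusted p of 0.0698 without 2i+LIF replicate 2 and 0.0713 without LIF+PD replicate 2, and differed by −0.35 without LIF (adjusted p = 0.103). Idh1, which makes the TET cosubstrate 2-oxoglutarate, fell 1.36-fold without LIF (−0.43, adjusted p = 0.0217), with an adjusted p of 0.118 without 2i+LIF replicate 1 and 0.0947 without 2i replicate 1. Of the 10 TET cofactors and partners tested, 2 were called higher and 1 lower without LIF, 5 and 1 without CH, and 2 and 2 without PD, with medians of 0.30, 0.40 and 0.051. Shares over all genes were 9.77% higher and 8.86% lower without LIF, 14.8% and 10.4% without CH, and 12.2% and 13.3% without PD.

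Of 10 repair genes downstream of Tdg, 0 were called in limma without LIF (3 higher and 0 lower before adjustment). Without CH 2 were called higher and 0 lower (3 and 1 before adjustment), and without PD 1 and 0 (2 and 2). The shares over all genes were 9.77% higher and 8.86% lower without LIF, 14.8% and 10.4% without CH, and 12.2% and 13.3% without PD. Polb, the polymerase that fills the excised base, rose without CH by 0.50 (adjusted p = 0.0235) and without PD by 0.50 (adjusted p = 0.0242). Xrcc1, the scaffold of the repair complex, rose without CH by 0.66 (adjusted p = 0.00238). Leaving out either culture of either condition compared lost each Polb call, with adjusted p-values of 0.0631 to 0.116 for CH and 0.0766 to 0.111 for PD. The median of the 10 was 0.13 without LIF, −0.00044 without CH and 0.051 without PD.

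In the methyl donor cycle, which supplies S-adenosylmethionine, 1 of 12 genes was higher and 2 lower without LIF, 2 and 1 without CH, and 1 and 2 without PD. The medians were 0.12, 0.015 and 0.060. Among all genes, 9.77% were higher and 8.86% lower without LIF, 14.8% and 10.4% without CH, and 12.2% and 13.3% without PD. Mtrr, which restores methionine synthase, fell without LIF (−0.64, adjusted p = 0.00401) and without PD (−0.48, adjusted p = 0.0105). Shmt1, a cytosolic serine hydroxymethyltransferase, fell without LIF (−0.44, adjusted p = 0.0464) and without CH (−0.52, adjusted p = 0.0217), while its mitochondrial relative Shmt2 rose without CH (0.33, adjusted p = 0.0407) and without PD (0.38, adjusted p = 0.0266). The Mtrr call for PD had adjusted p-values of 0.0582 and 0.0559 without 2i+LIF replicate 1 or 2 and 0.0609 without CH+LIF replicate 1. The Shmt1 call for LIF was lost without any 1 culture of 2i+LIF, 2i or LIF+PD (0.0541 to 0.212), and that for CH without 2i+LIF replicate 1 or either LIF+PD culture (0.0816 to 0.117). The Shmt2 call for CH was lost without any 1 culture other than 2i+LIF replicate 1 (0.0517 to 0.192), and that for PD without 2i+LIF replicate 2 or either CH+LIF culture (0.0835 to 0.132).

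Of 6 methyl-CpG readers tested in limma, 0 were called higher without LIF, CH or PD (1, 0 and 1 before adjustment), and 0, 1 and 2 were called lower. Over all genes the shares were 9.77%, 14.8% and 12.2% higher, and 8.86%, 10.4% and 13.3% lower. Mbd1 fell 2.66-fold without CH, from 8.14 and 8.99 to 3.26 and 3.18 FPKM (−1.18, adjusted p = 0.000646), and 1.41-fold without PD (−0.43, adjusted p = 0.0321), and Mbd2 fell 1.66-fold without PD (−0.68, adjusted p = 0.0272). The list medians were 0.13, −0.012 and 0.18, so that for PD withdrawal both calls of the list ran against the sign of the median. For PD, the Mbd1 call was lost without any 1 of the 4 cultures compared (0.0808 to 0.159), and the Mbd2 call without 2i+LIF replicate 2 or either CH+LIF culture (0.0732 to 0.127). With TPM scaling they had adjusted p-values of 0.217 and 0.0918.

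Maintenance enzymes follow the cell cycle, so replication genes were set beside them. The part of the cell cycle in the levels of the enzymes was not tested. Of 15 tested in limma, 0 were called without LIF (1 higher and 1 lower before adjustment), with a median of −0.068. Of all genes, 9.77% were called higher and 8.86% lower there. Without CH 2 were higher and without PD 5, with medians of 0.084 and 0.13, against 14.8% and 12.2% of all genes. Ccne1, the cyclin of S-phase entry, rose 2.15-fold without CH (1.10, adjusted p = 0.00082) and 2.36-fold without PD (1.23, adjusted p = 0.000898). Rrm2, a subunit of ribonucleotide reductase, rose without CH (0.40, adjusted p = 0.0123) and without PD (0.31, adjusted p = 0.0297). The first of these passed in 15 of 18 other settings and was lost without 2i+LIF replicate 2 or either LIF+PD culture. The second passed in 10 of 18. Slbp, which binds histone mRNA, rose without PD (0.39, adjusted p = 0.037), with adjusted p-values of 0.0588 to 0.171 without either 2i+LIF culture, CH+LIF replicate 1 or either LIF+PD culture.

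Germline genes known to be silenced by promoter methylation went both ways. Of 10 tested, 3 were higher and 4 lower without LIF, 3 and 1 without CH, and 2 and 5 without PD, with medians of −0.18, 0.58 and −0.69. For all genes the shares were 9.77% higher and 8.86% lower without LIF, 14.8% and 10.4% without CH, and 12.2% and 13.3% without PD. Ddx4, an RNA helicase of germ cells, rose from 1.08 and 1.17 to 6.34 and 6.02 FPKM without LIF (1.76, adjusted p = 0.000964), and Mael, a piRNA pathway factor, rose from 1.67 and 1.76 to 6.98 and 9.15 FPKM without CH (1.73, adjusted p = 0.000589). Dazl, an RNA-binding protein of germ cells, fell from 9.92 and 7.27 to 2.34 and 2.09 FPKM without PD (−1.56, adjusted p = 0.00271). It also fell without LIF (−1.17, adjusted p = 0.00837), past the threshold in 17 of 18 other settings. Fkbp6, a meiotic cochaperone, fell without CH (−1.50, adjusted p = 0.000466), without PD (−1.09, adjusted p = 0.00209) and without LIF (−0.89, adjusted p = 0.00465). Mael also rose without LIF (1.33, adjusted p = 0.00224) and without PD (1.16, adjusted p = 0.00363), and Ddx4 also rose without PD (1.20, adjusted p = 0.00397). Tuba3a, a testis tubulin, fell without LIF (−1.95, adjusted p = 0.00256) and without PD (−2.28, adjusted p = 0.0015) and rose without CH (1.23, adjusted p = 0.0123). The rise of Tuba3a had an adjusted p of 0.0556 without 2i+LIF replicate 2, and 0.0647 and 0.0515 without LIF+PD replicate 1 or 2.

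The profile of each member over the 8 cultures was compared with those of 4360 genes. These had a mean FPKM of at least 5 over all cultures and varied between conditions. The points share libraries and conditions, and with 4360 candidates high values of Pearson's r are found for any profile, so these are descriptions over n = 8. Kdm2b was most like Dnmt3a (r = 0.988), followed by Magi1 (0.981) and Pi4k2b (0.977). For Dnmt3l the nearest were Cdk2ap1 (0.983), Tfe3 (0.974) and Cdk17 (0.974), and for Dnmt3b 1500011B03Rik (0.970), Phgdh (0.968) and Xpnpep3 (0.956).

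For Tet1 they were Tcf20 (0.996), Casc5 (0.976) and Mapk6 (0.972), and for Tet2 Cbr1 (0.995), Fzd5 (0.995) and Pcolce (0.994). Pcolce, like Tet2, was lowest in 2i, with a mean FPKM of 11.5 against 112.9 to 172.0 in the 3 conditions with LIF. For Uhrf1 they were Fst (0.995), Slfn9 (0.986) and Nkain1 (0.984), for Dnmt1 Psmb10 (0.980), Sgk1 (0.979) and Arl6 (0.979), for Tdg Thop1 (0.975), Nup160 (0.971) and Fip1l1 (0.963), and for Tet3 Tnks (0.974), Lrp6 (0.954) and Ptprs (0.951). No gene was among the nearest 3 of 2 members.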

How the data were processed

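RNA-seq of 8 RGd2 cultures was analysed, with 2 in each condition as the sample labels give them. The authors aligned single-end reads to mm10 with TopHat2 and Ensembl 75 annotation, kept uniquely mapped reads, and deposited FPKM values by gene, each with its bounds, for every culture on its own. The submitters' processing notes also name Cufflinks and Cuffdiff. FPKM depends on the transcript lengths and library total used, and no rescaling was applied. Libraries are described both as rRNA-depleted and as polyA RNA.

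Entries with 1 Ensembl identifier were summed, which left 38991 genes. The 12927 genes that reached an FPKM of 1 in 2 or more cultures were tested on log2(FPKM + 1) with limma 3.58.1 (trend, R 4.3.3) in 1 fit of all 8 cultures with 4 residual degrees of freedom, with Benjamini-Hochberg adjustment per comparison, threshold 0.05. Intervals are 95% and come from the same fit. The tests were checked on simulated data.

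The members and gene lists were chosen with earlier results of these data known. Genes named beside the members are Prdm14, Dppa3 and Zfp57, the 2 genes of each list with the largest called difference in each withdrawal and a mean FPKM of at least 5 in 1 condition, and the 3 genes most correlated with each member. Further values of genes so named were added to describe them, and Aire, Glt8d2 and the marker genes were named for the checks they serve. Cdt1, Gins2 and Tubb3 were not analysed here, and 1 list gene was matched by an older symbol. Alternatives were other pseudocounts (0.1 and 5), no filter, 3 scalings, no trend, only the 2 conditions compared, a replicate block, and each culture left out in turn. The 18 settings also include the midpoint of the deposited bounds, which was chosen after seeing the data. Promoter sequences are from RefSeq (GRCm38.p6), in which 9 of 9 members were matched.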

Additional observations from a re-analysis of the deposited data

How the results depend on the processing

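Of 972 member differences under 18 alternatives for 54 results, 896 kept their direction and side of the threshold, 52 fell below it (35 of them with a culture left out), 16 rose past it and 8 turned sign; the cause was not tested. Sign turns, none of them called, were Tet1 on LIF withdrawal without 2i replicate 2 (leave-one-out range -0.15 to 0.38), Tet2 on CH withdrawal (0.045) and Uhrf1 on PD withdrawal (0.053) with TPM scaling, Dnmt1 on CH withdrawal with median-of-ratios scaling (-0.025), and, with a culture left out, Tet3 (-0.15 to 0.16) and Tdg (-0.036 to 0.19) in CH+LIF against 2i and Dnmt3b in LIF+PD against 2i (-0.52 to 0.12). TPM scaling moved the median of all genes to 0.16 without CH and 0.18 without PD, and the share of calls that were higher from 58.6% to 75.04% without CH, from 47.9% to 73.9% without PD and from 44.5% to 63.6% in CH+LIF against 2i. With only the 2 conditions compared, which leaves fewer cultures, calls over all genes went from 2408 to 1500 (LIF withdrawal) and from 3089 to 1808 (CH+LIF against 2i), members called in LIF+PD against 2i from 4 to 1, and in CH+LIF against LIF+PD from 1 to 2, as with no filter (2), median-of-ratios scaling (2) and quantile normalization (2). Leaving out 1 culture gave 2 to 5 members on CH withdrawal, 3 to 5 on PD withdrawal, 1 to 2 in CH+LIF against LIF+PD and 2 to 3 in LIF+PD against 2i. Over all genes it gave 1152 to 2150 (LIF withdrawal), 1661 to 3372 (CH), 1506 to 3363 (PD), 1478 to 2726 (CH+LIF against 2i), 2262 to 4026 (CH+LIF against LIF+PD) and 1873 to 2987 (LIF+PD against 2i). Nothing states whether replicate numbers pair the samples. Over the genes tested, replicate deviations correlated between conditions at -0.0283 to 0.0925, which does not settle pairing for single genes. Dnmt3a was higher in replicate 1 than in replicate 2 in every condition. Its SE on LIF withdrawal was 0.178 in the main fit and 0.113 with a replicate block. A replicate block gave 5 members on PD withdrawal in place of 6, as Dnmt1 (adjusted p = 0.0522) was lost, and changed no other member call. Read totals are not known, so counting error could not be computed.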
